A study of Homo sapiens with 6 samples.

Results

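The guanylate-binding proteins (GBPs) are a family of large GTPases, and the 6 members described here, *GBP1* to *GBP6*, are those of the human family whose rows were taken from the gene tables by name. All 6 were found among the 57905 genes of the tables, and 5 of them had enough reads to be tested, while *GBP5* did not. They were measured by poly(A) RNA sequencing in RT4, an established line from a non-muscle invasive bladder cancer that the labels give as wild type. RT4 cells were transfected for 48 h with 100 pmol of the *LEADR* siRNA (LEADR-KD, n = 3) or with 100 pmol of a scramble siRNA, a universal negative control (Scramble, n = 3). *LEADR* is the spliced long non-coding RNA of the gene *MIR205HG*, and a single siRNA sequence against it was used. The methods call the replicates biological, but the labels do not say whether they were separate transfections, so that p-values measure the spread between these libraries.

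Interferon-gamma binds a receptor that activates the kinases JAK1 and JAK2. The signal acts on genes through gamma-activated sites (GAS) and induces IRF1, which binds interferon-stimulated response elements (ISRE), and most *GBP* genes are textbook targets of this pathway. The proteins made assemble as coats on the membranes of intracellular bacteria and parasites, where they help to open the vacuole and to activate inflammatory caspases. Type I interferon can induce the same family.

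The siRNA is shown because its bases 2 to 8, the seed with which a small RNA recognises 3′ UTRs, can be searched for in the members. The strand that the labels list has the sequence of the transcript itself, found in 13 of the 17 annotated *MIR205HG* isoforms, and its complement is the strand that pairs with *LEADR*. Both are written here with the seed in capitals and taken as blunt strands, since the overhangs are not given in the sources used here.
Listed strand: aACUGGGUgcuuuauauagga
Complementary strand: uCCUAUAUaaagcacccaguu

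In LEADR-KD cells the GBP family did not move as 1 block. *GBP1* rose by a fold of 2.25, *GBP6* rose by a fold of 2.55 at a low level and *GBP2* rose by a fold of 1.25. *GBP4* fell to a fold of 0.477, *GBP3* did not pass the test and *GBP5* was at or near 0 reads throughout. A gene is said to have risen or fallen at a Benjamini-Hochberg adjusted p under 0.05 in edgeR's quasi-likelihood test over all 14178 genes tested. By this test 3 of the 5 tested members rose, where 12.2% of all tested genes did, and 1 fell, where 12.1% of all tested genes did. Of all tested genes 1736 rose and 1719 fell, with 1142 that fell without LEADR-KD 2, and 1085 rose and 1553 fell under library totals in place of TMM scaling. In these bulk libraries fewer cells that express a gene and less RNA per cell cannot be told apart. In each of the 4 members that rose or fell the 3 LEADR-KD libraries lay on 1 side of the 3 Scramble libraries, which was also so for 19.9% of all tested genes on the higher side and for 19.9% on the lower side.

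The targeted gene was checked first. *MIR205HG* had 113, 211 and 101 reads in LEADR-KD libraries 1, 2 and 3, against 511, 337 and 346 reads in Scramble libraries 1, 2 and 3. The groups did not overlap, and the log2 fold change of -1.47 (SE 0.26, adjusted p = 0.00180) is in the direction that the labels give. The libraries held between 15706033 and 18960822 counted reads. Both libraries numbered 1 stood apart in mitochondrial reads, with 10.8% in LEADR-KD 1 and 11.9% in Scramble 1, where the other 4 libraries had 3.06% to 5.73%. Of 16 urothelial markers 15 were tested, and their summed level in CPM, counts scaled to the depth of each library, was 8843 to 9426 in LEADR-KD and 7541 to 8261 in Scramble. Of these 15 markers 3 rose, *CDH1* (1.11), *UPK1B* (0.76) and *KRT18* (0.39), and *ELF3* (-0.51) and *FOXA1* (-0.30) fell. These counts are near the 12.2% of all tested genes that rose and the 12.1% that fell. The call of *KRT18* was lost without LEADR-KD 1 (adjusted p = 0.0796), LEADR-KD 3 (0.0720), Scramble 2 (0.0971) or Scramble 3 (0.105), and that of *FOXA1* without LEADR-KD 1 (0.0584), LEADR-KD 3 (0.0830) or Scramble 2 (0.0970).

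*GBP1*, whose product is the pioneer that first coats bacterial surfaces in human cells, is encoded on the minus strand of chromosome 1 (ENSG00000117228, chr1:89518002-89531043, hg19). It had 1719, 1971 and 2562 reads in LEADR-KD libraries 1, 2 and 3. It had 870, 956 and 1005 reads in Scramble libraries 1, 2 and 3. Every LEADR-KD library was far above every Scramble library, with LEADR-KD 3 the highest. Scaled for depth, *GBP1* averaged 120 ± 21.4 CPM in LEADR-KD and 53.4 ± 5.79 CPM in Scramble (SD, n = 3 each), a log2 fold change of 1.17 (SE 0.13, adjusted p = 7.12e-05). Of the 14178 tested genes, *GBP1* had the log2 fold change that ranked 199 from the top.

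*GBP2* encodes a prenylated member that joins coats begun by *GBP1*, and lies on the same strand (ENSG00000162645, chr1:89571815-89616139). It had 2090, 2294 and 1931 reads in the LEADR-KD libraries, against 1716, 2070 and 1425 reads in the Scramble libraries. Unscaled reads of LEADR-KD 3 were below those of Scramble 2, but after scaling the groups no longer overlapped. *GBP2* averaged 122 ± 11.3 CPM in LEADR-KD and 97.5 ± 11.0 CPM in Scramble (SD, n = 3 each), a log2 fold change of 0.33 (SE 0.10, adjusted p = 0.0402). This call lay close to the threshold and was lost without LEADR-KD 1 (adjusted p = 0.106), LEADR-KD 2 (0.126), Scramble 1 (0.0600) or Scramble 3 (0.145), and under library totals in place of TMM scaling (0.0823), while the direction stayed.

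*GBP3*, the first gene of the cluster (ENSG00000117226, chr1:89472349-89488577), encodes a member that is also recruited to bacteria after *GBP1*. Its reads numbered 994, 1232 and 1270 in the LEADR-KD libraries, against 948, 1130 and 1198 in the Scramble libraries. The groups overlapped, with Scramble 3 as high as the LEADR-KD libraries. *GBP3* averaged 67.3 ± 4.84 CPM in LEADR-KD and 61.8 ± 8.50 CPM in Scramble (SD, n = 3 each). The log2 fold change of 0.12 (SE 0.11, adjusted p = 0.456) was about the size of its own error, which does not show that the level was the same.

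*GBP4* lacks the prenylation motif of *GBP1*, *GBP2* and *GBP5* and is also known as a coat component that helps to recruit inflammatory caspases (ENSG00000162654, chr1:89646831-89664615, minus strand). It had 252, 296 and 289 reads in the LEADR-KD libraries. It had 578, 661 and 564 reads in the Scramble libraries. After scaling for depth the libraries of each group were almost equal, and the groups were far apart. *GBP4* averaged 16.1 ± 0.313 CPM in LEADR-KD and 33.9 ± 0.190 CPM in Scramble (SD, n = 3 each), and its log2 fold change was -1.07 (SE 0.11, adjusted p = 3.51e-05). It was thus the single tested member that moved downwards, with the smallest p of the family and rank 166 by p among all tested genes.

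*GBP5*, a prenylated member that in other cells promotes inflammasome assembly, lies on the minus strand (ENSG00000154451, chr1:89724633-89738544). It had 0, 0 and 0 reads in the LEADR-KD libraries, against 0, 1 and 2 reads in the Scramble libraries. All 6 values lie at or under the limit of 3 reads that a count of 0 allows, which corresponds to 0.154 to 0.188 CPM, so that no fold is given. A difference in *GBP5* was not detectable at this depth.

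*GBP6* is the only member of the 6 on the plus strand (ENSG00000183347, chr1:89829617-89852020), and its role in human cells is less well described. It had 41, 49 and 53 reads in the LEADR-KD libraries, against 14, 31 and 13 reads in the Scramble libraries. Every LEADR-KD library was higher, although Scramble 2 came nearer to them than the other Scramble libraries. *GBP6* averaged 2.75 ± 0.223 CPM in LEADR-KD and 1.06 ± 0.457 CPM in Scramble (SD, n = 3 each), a log2 fold change of 1.35 (SE 0.35, adjusted p = 0.0162). The call was narrowly lost without LEADR-KD 2 (adjusted p = 0.0502), LEADR-KD 3 (0.0544) or Scramble 3 (0.0585).

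**Figure D1:**
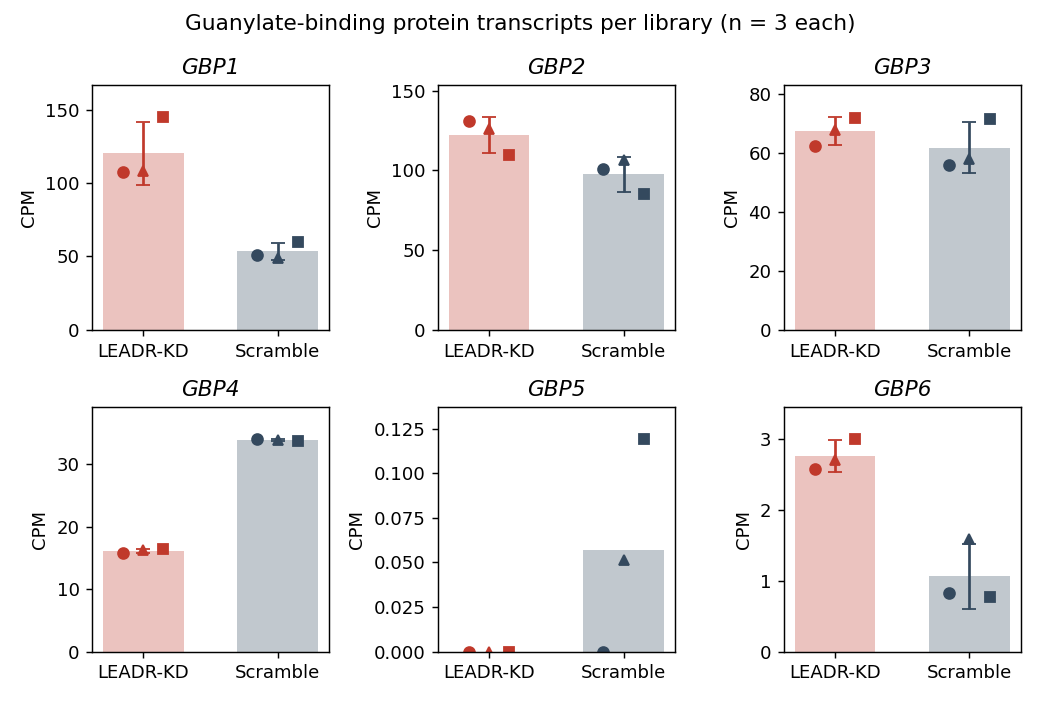
Level of each *GBP* gene in CPM (counts scaled to library depth, each panel with its own axis from 0) in LEADR-KD and Scramble libraries. Points are libraries 1 (circle), 2 (triangle) and 3 (square), bars are means and error bars the SD over 3 libraries, left out for *GBP5*, which had 0 to 2 reads. LEADR-KD lay above Scramble for *GBP1* (120 against 53.4 CPM) and below it for *GBP4* (16.1 against 33.9 CPM), and the groups overlapped for *GBP3*.

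Levels of different genes were compared as FPKM, in which reads are divided by gene length and by the depth of the library. In LEADR-KD cells the order was *GBP1* (24.1 ± 4.27), *GBP2* (19.4 ± 1.82), *GBP3* (15.6 ± 1.09), *GBP4* (2.63 ± 0.0438), *GBP6* (0.920 ± 0.0734) and *GBP5* (0). In Scramble cells it was *GBP2* (15.4 ± 1.76), *GBP3* (14.2 ± 1.94), *GBP1* (10.6 ± 1.13), *GBP4* (5.48 ± 0.0374), *GBP6* (0.353 ± 0.152) and *GBP5* (0.00687 ± 0.00722) (FPKM, SD, n = 3). *GBP1* was thus above *GBP2* and *GBP3* in LEADR-KD and below both in Scramble. *GBP2* and *GBP3* did not differ beyond their spread in Scramble, and in LEADR-KD *GBP1* exceeded *GBP2* by about 1 SD of *GBP1*, with 21.6 and 20.9 FPKM in LEADR-KD 1.

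The summed FPKM of the 6 genes was 62.6 ± 3.54 in LEADR-KD and 46.0 ± 1.35 in Scramble (SD, n = 3 each). *GBP1* made up 38.2 ± 4.51% of that sum in LEADR-KD and 23.0 ± 1.93% in Scramble. *GBP4* made up 4.20 ± 0.185% in LEADR-KD and 11.9 ± 0.424% in Scramble. The transcript pool of the family therefore held more *GBP1* and less *GBP4* in all 3 LEADR-KD libraries than in any Scramble library. The share of *GBP2* was 31.2 ± 4.51% in LEADR-KD and 33.5 ± 4.55% in Scramble, within the spread of the libraries, and that of *GBP3* was 24.9 ± 0.893% in LEADR-KD and 30.9 ± 3.32% in Scramble.

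**Figure D2:**
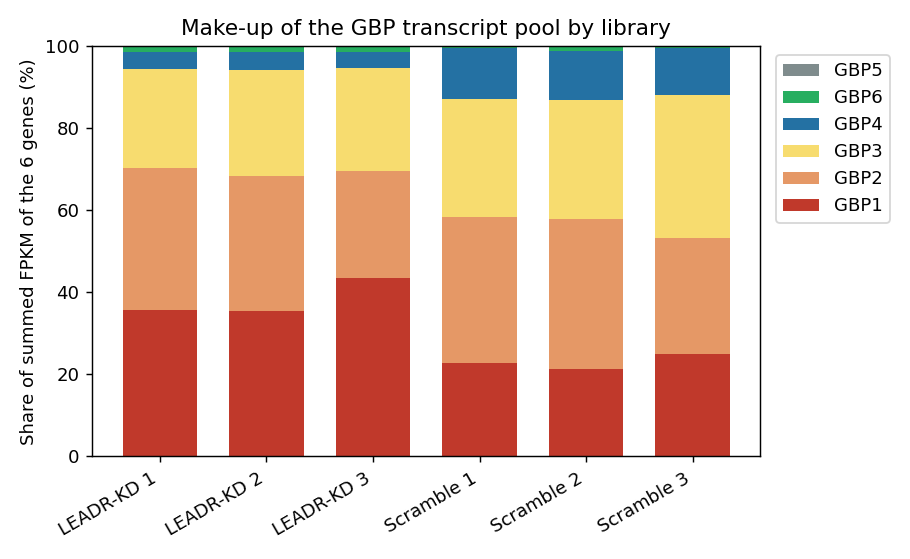
Share of each gene in the summed FPKM of *GBP1* to *GBP6* (percent, stacked to 100) in the 3 LEADR-KD and the 3 Scramble libraries. The blue band of *GBP4* was 3.99% to 4.35% in LEADR-KD and 11.5% to 12.3% in Scramble, and the red band of *GBP1* was 35.5% to 43.4% in LEADR-KD and 21.2% to 25.0% in Scramble.

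The ratio of *GBP4* to each other tested member within a library does not depend on library scaling. *GBP4* over *GBP1* was 0.119, 0.122 and 0.0919 in the LEADR-KD libraries, against 0.541, 0.563 and 0.457 in the Scramble libraries, a difference of -2.23 in the mean log2 ratio of FPKM. *GBP4* over *GBP3* was 0.178, 0.168 and 0.160 in the LEADR-KD libraries, against 0.428, 0.410 and 0.330 in the Scramble libraries, a difference of -1.20. Both ratios were lower in all 3 LEADR-KD libraries than in all 3 Scramble libraries. The mean ratio to *GBP2* was 0.136 in LEADR-KD and 0.359 in Scramble, and the mean ratio to *GBP6* was 2.87 in LEADR-KD and 17.2 in Scramble. In an exact two-sided permutation test each of the 4 ratios gave p = 0.1, the smallest that 3 against 3 libraries allow. After Benjamini-Hochberg adjustment over the 4 it was also 0.1. *GBP4* was made the numerator because an earlier report on these data gave it as lower, and all 4 ratios share it. The test is therefore no independent support for the fall of *GBP4*.

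*GBP4* is also the only tested member whose 3′ UTR holds an 8-base match to the seed of either siRNA strand. For the listed strand the 8-base word ACCCAGTA, complementary to bases 2 to 8 and followed by A, occurred once in the 3′ UTR of *GBP4*. The same 3′ UTR held the 6-base core of that word 3 times in all, the 8-base match included. The 3′ UTRs of *GBP1*, *GBP2* and *GBP3* held no match of 6 or more bases to either strand, and that of *GBP6* held 1 of 6 bases to the complementary strand. That of *GBP5* held matches of 7 bases to the listed strand and of 8 bases to the complementary strand, but its level could not be followed.

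The 8-base word of the listed strand was found in 348 of 12092 tested genes with an annotated 3′ UTR (2.88%). Of these 348 genes 33.9% fell and 8.05% rose in LEADR-KD, where 13.0% of all 12092 fell and 14.0% rose. Their 3′ UTRs were longer, with a median of 3860 bases against 1538 bases for all 12092. The 439 genes with the 8-base word of the complementary strand had a median of 3858 bases, and 19.1% of them fell and 15.5% rose. Among the 79 tested genes made up of the members and the interferon targets described below, 3 fell, namely *GBP4*, *WARS* and *OAS2*, and all 3 were among the 4 that held the 8-base word of the listed strand. The 4th, *SOCS1*, had a log2 fold change of -0.88 (SE 0.42, adjusted p = 0.158). Over all lists used here but the cell type markers 121 genes were tested and 9 fell, of which 5 were among the 6 that held this word. The other 4, *PIM1*, *ZMPSTE24*, *LRRC8B* and *LMO4*, fell without it. The 8-base word of the complementary strand was in 5 of the 121, and 3 of these, *PIM1*, *RBMXL1* and *LRRC8B*, fell. These counts are a description, with no account of 3′ UTR length, and the part of the site in the lower level of *GBP4* was not tested.

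Promoters of 4 of the 6 members (*GBP1*, *GBP3*, *GBP4* and *GBP6*) were matched in RefSeq (GRCh38.p14), each from 250 bases before to 50 bases after the start of the gene. They are shown to set members that moved in opposite directions side by side. An ISRE core, GAAA, any 2 bases and GAAA on either strand, was found in those of *GBP1*, *GBP3* and *GBP4*, and in 3.57% of all 35116 promoters. A GAS, TTCNNNGAA, was found in that of *GBP3* and in 7.66% of all promoters. Only these exact words were searched, so that sites of a different sequence would be missed. The matches are in capitals, read on the strand of the gene.
*GBP1*, ISRE core, chr1:89065306-89065355, minus strand: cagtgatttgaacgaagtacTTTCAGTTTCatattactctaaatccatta
*GBP3*, ISRE core, chr1:89022855-89022884, minus strand: cacttccttgaaagaagtacTTTCAGTTTC
*GBP3*, GAS, chr1:89022867-89022901, minus strand: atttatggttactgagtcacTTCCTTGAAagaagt
*GBP4*, ISRE core, chr1:89198937-89198966, minus strand: tccccacaaagtgcatgtccTTTCAATTTC
The 2 windows of *GBP3* overlap, but the 2 matches do not. The ISRE core was therefore present in the promoter of a member that rose, 1 that did not pass and 1 that fell, and the window of *GBP6*, which rose, held neither motif. A match is not evidence of binding, and a window without a match may still hold a site that differs from the word.

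The 6 genes lie in 1 stretch of 379.672 kb on chromosome 1, 5 of them on the minus strand. Within it, from the first gene to the last, the log2 fold changes were 0.12 (*GBP3*), 1.17 (*GBP1*), 0.33 (*GBP2*), -1.07 (*GBP4*) and 1.35 (*GBP6*). The single member that fell therefore lay between members that rose. Of the 2 other *GBP* genes of the region, *GBP7*, which overlaps *GBP2* on the same strand, had 9, 0 and 0 reads in the LEADR-KD libraries, against 0, 1 and 1 in the Scramble libraries. The pseudogene *GBP1P1* had 32, 29 and 67 reads in the LEADR-KD libraries, against 58, 62 and 56 in the Scramble libraries (log2 fold change -0.42, SE 0.32, adjusted p = 0.385).

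Of 10 neighbouring genes 9 were tested. Among these 2 rose and 3 fell, where 12.2% and 12.1% of all tested genes did. *PKN2*, a protein kinase gene, rose by 0.30 and *LRRC8C*, a subunit of the volume-regulated anion channel, rose by 0.51 on the log2 scale. *LMO4*, a transcriptional cofactor gene, fell by 0.49, *RBMXL1*, an RNA-binding protein gene, fell by 0.56, and *LRRC8B*, another channel subunit gene, fell by 0.57. *GTF2B* (0.12), *CCBL2* (0.16), *LRRC8D* (-0.01) and *ZNF326* (0.04) did not pass, and *BARHL2* had no reads. The call of *PKN2* was lost without Scramble 2 (adjusted p = 0.0637) or Scramble 3 (0.0571), and that of *LRRC8C* without LEADR-KD 1 (0.115), LEADR-KD 2 (0.0826), Scramble 1 (0.0518), Scramble 2 (0.0746) or Scramble 3 (0.108). Neighbours thus moved in both directions, and all of them by less than *GBP1*, *GBP4* and *GBP6*.

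**Figure D3:**
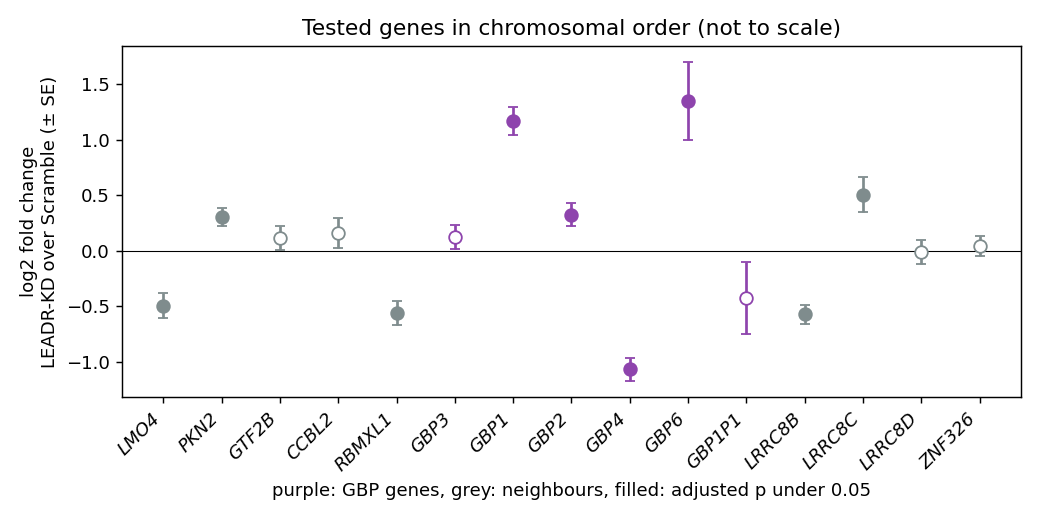
Log2 fold change of LEADR-KD over Scramble (± SE) for the tested *GBP* genes (purple) and their tested neighbours (grey), in chromosomal order and not to scale. Filled points passed an adjusted p under 0.05. *GBP4* (-1.07) stands alone below 0 among the *GBP* genes that passed, beside *GBP2* (0.33) and *GBP6* (1.35).

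The genes upstream of the family were then examined from lists written from general knowledge. Of 8 tested genes of the interferon-gamma receptor and its signalling 1 passed as higher, near the 12.2% of all tested genes that did. None passed as lower, though *IFNGR1* lay at the threshold. The median log2 fold change of the 8 was 0.11, against -0.01 over all 14178 genes. *JAK2* had 140, 126 and 114 reads in the LEADR-KD libraries, against 73, 78 and 59 in the Scramble libraries (log2 fold change 0.90, SE 0.20, adjusted p = 0.00740). *JAK2*, a kinase of the receptor, was higher in every LEADR-KD library and passed in 17 of the 18 other settings.

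The receptor chain gene *IFNGR1* had a log2 fold change of -0.50 (SE 0.17, adjusted p = 0.0502) and *IFNGR2* of -0.13. *IFNGR1* passed as lower in 6 of the 18 other settings, among them DESeq2 (adjusted p = 0.0143) and the fits without LEADR-KD 3 (-0.61, adjusted p = 0.0462) or Scramble 1 (-0.63, adjusted p = 0.0246), and over the 18 its adjusted p was 0.000137 to 0.289. The class II transactivator gene *CIITA* stood at 0.51 (SE 0.18, adjusted p = 0.0571) and passed as higher in 4 of the 18, among them the fit without LEADR-KD 1 (0.59, adjusted p = 0.0464). *JAK1* (0.06), *IRF1* (0.15), *IRF2* (-0.04) and the class I transactivator gene *NLRC5* (0.20) did not pass. *IRF1*, the factor through which much of the *GBP* response is known to run, thus moved by little more than its error of 0.13. *BATF2* had 0 to 12 reads and *IRF8* none. Of 8 brakes on the pathway 1 rose, the feedback inhibitor gene *SOCS3* (0.94, SE 0.21, adjusted p = 0.00740). That is near the 12.2% of all tested genes that rose.

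Of 41 tested interferon-gamma targets 13 rose and 1 fell, where 12.2% and 12.1% of all tested genes did. Their median log2 fold change was 0.28. The largest rises were those of the chemokine gene *CXCL10* (2.48, SE 0.36), the tryptophan-degrading enzyme gene *IDO1* (2.27, SE 0.64), the ISG15-conjugating enzyme gene *UBE2L6* (1.08, SE 0.20) and *APOL3* (1.06, SE 0.23), whose product disrupts bacterial membranes. The gene that fell was *WARS*, the tryptophanyl-tRNA synthetase, with 1034, 1228 and 1532 reads in the LEADR-KD libraries, against 2307, 2686 and 2545 in the Scramble libraries (-0.96, SE 0.11, adjusted p = 0.000119). *GBP1*, at 1.17, thus stood between *IDO1* and *UBE2L6*, and *GBP4* fell by about as much as *WARS*. The call of *IDO1*, which had 1 to 26 reads, was lost without LEADR-KD 3 (adjusted p = 0.120), Scramble 2 (0.0910) or Scramble 3 (0.0536). The number that rose varied with the library left out, from 7 without Scramble 2 to 17 without LEADR-KD 1, and was 8 under library totals.

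Of 33 tested type I interferon targets 16 rose and 1 fell, where 12.2% and 12.1% of all tested genes did. Their median log2 fold change was 0.88. The antiviral genes *RSAD2* (2.91, SE 0.32), *IFIT1* (2.29, SE 0.47), *SAMD9L* (1.98, SE 0.36) and *OASL* (1.92, SE 0.12) rose the most. *OAS2*, an oligoadenylate synthetase gene, had 754, 1241 and 1481 reads in the LEADR-KD libraries, against 2295, 1689 and 3148 in the Scramble libraries (-1.04, SE 0.25, adjusted p = 0.0107). With 1 library left out the number that rose ran from 13 without LEADR-KD 3 (median 0.74) to 28 without Scramble 3 (median 1.71). The members, with 3 of 5 higher and 1 lower, are too few for a difference from either list to be read from these counts.

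**Figure D4:**
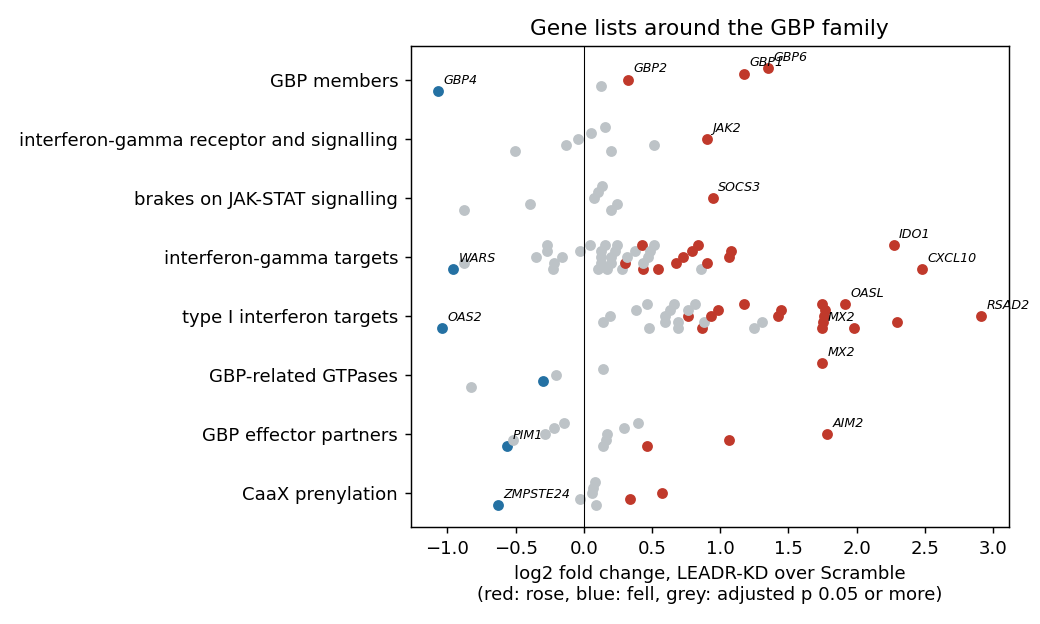
Log2 fold change of LEADR-KD over Scramble for each tested gene of 8 lists, with points that rose in red, points that fell in blue and points that did not pass in grey. Type I interferon targets had a median of 0.88 and interferon-gamma targets of 0.28, and *GBP4* (-1.07), *OAS2* (-1.04) and *WARS* (-0.96) are the blue points of the members, the type I interferon targets and the interferon-gamma targets.

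Genes that act beside the family or modify its products were examined as well. Of 5 tested related GTPases, the antiviral dynamin-like GTPase gene *MX2* rose by 1.75 on the log2 scale (SE 0.39, adjusted p = 0.00774) and the atlastin gene *ATL3* fell by 0.30 (SE 0.09, adjusted p = 0.0286). The other 3 did not pass, and over all tested genes 12.2% rose and 12.1% fell. The call of *ATL3* was lost without LEADR-KD 2 (adjusted p = 0.0934), LEADR-KD 3 (0.0938), Scramble 1 (0.0804) or Scramble 2 (0.102). Of 13 partners and regulators of GBP action 3 rose and 1 fell, where 12.2% and 12.1% of all tested genes did. The DNA sensor gene *AIM2* rose by 1.78, *APOL3* rose as given above and the protease gene *FURIN*, whose product is inhibited by *GBP2* and *GBP5*, rose by 0.46. The kinase gene *PIM1*, whose product is known to restrain GBP1, fell by 0.56 (SE 0.10, adjusted p = 0.00249).

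*GBP1*, *GBP2* and *GBP5* carry a C-terminal CaaX motif that is prenylated. Of 8 genes of this modification, the geranylgeranyl diphosphate synthase gene *GGPS1* rose by 0.58 and the methyltransferase gene *ICMT* by 0.34, and the protease gene *ZMPSTE24* fell by 0.63 on the log2 scale. The other 5 did not pass, and over all tested genes 12.2% rose and 12.1% fell. The call of *ICMT* was lost without LEADR-KD 1 (adjusted p = 0.0548), LEADR-KD 2 (0.0582), Scramble 1 (0.0726) or Scramble 3 (0.0749).

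Markers of other cells were low or went both ways. Of 14 leukocyte markers 5 were at 0 in all libraries and 12 were under 1 CPM in all, and their summed level was 11.0 to 13.7 CPM in LEADR-KD and 8.88 to 12.4 CPM in Scramble. *PTPRC*, the pan-leukocyte marker, had 0 reads in the 3 LEADR-KD libraries, against 0, 4 and 0 in the Scramble libraries. *CORO1A*, an actin-binding protein gene, made up part of this sum and rose by 0.87 (adjusted p = 0.0118, and 0.0595 without LEADR-KD 2). Of 8 fibroblast markers 5 were at 0, with a sum of 18.4 to 25.7 CPM in LEADR-KD and 26.4 to 32.1 CPM in Scramble. The 5 endothelial markers in the table summed to 2.89 to 4.68 CPM in LEADR-KD and 7.28 to 10.4 CPM in Scramble, with 2 at 0 and *VWF* lower by a log2 fold change of -1.16. Their part in the changes of the *GBP* genes was not tested.

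The genes most like each member were sought among 11740 protein-coding genes, by Pearson's r of log2 CPM over the 6 libraries. As the libraries form 2 groups and share their scaling, r is a description only. For *GBP4* they were *SMARCD1*, *RFX5* and *HDHD1*, each with r = 0.999, and all 3 fell (log2 fold changes -1.05, -0.87 and -1.55). For *GBP1* they were *RAB21* (0.999), *CCNYL1* (0.999) and *MTBP* (0.998), and for *GBP6* they were *ZNF695* (0.999), *SEPT7* (0.996) and *KIAA1586* (0.996). For *GBP2* they were *FERMT1* (0.996), *SLK* (0.994) and *BCL2* (0.992), and for *GBP3* they were *DXO* (0.997), *GULP1* (0.992) and *TNFAIP3* (0.987). Among those of *GBP1* and *GBP6*, *CCNYL1* (0.78), *MTBP* (0.66), *SEPT7* (0.34) and *KIAA1586* (0.58) rose on the log2 scale. *RAB21*, *ZNF695* and all those of *GBP2* and *GBP3* did not pass. No *GBP* gene was among the 3 most like another.

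The direction of every tested member was the same in all 18 other settings of the analysis. *GBP1* ranged from 1.02 to 1.26 and *GBP4* from -1.11 to -0.84 on the log2 scale, and both passed the test in all 18. *GBP6* passed in 14 and *GBP2* in 9, and *GBP3* passed in 0. Leaving out both libraries numbered 1, those with the most mitochondrial reads, gave 1.21 for *GBP1*, -1.05 for *GBP4*, 1.24 for *GBP6*, 0.29 for *GBP2* and 0.10 for *GBP3*.

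**Figure D5:**
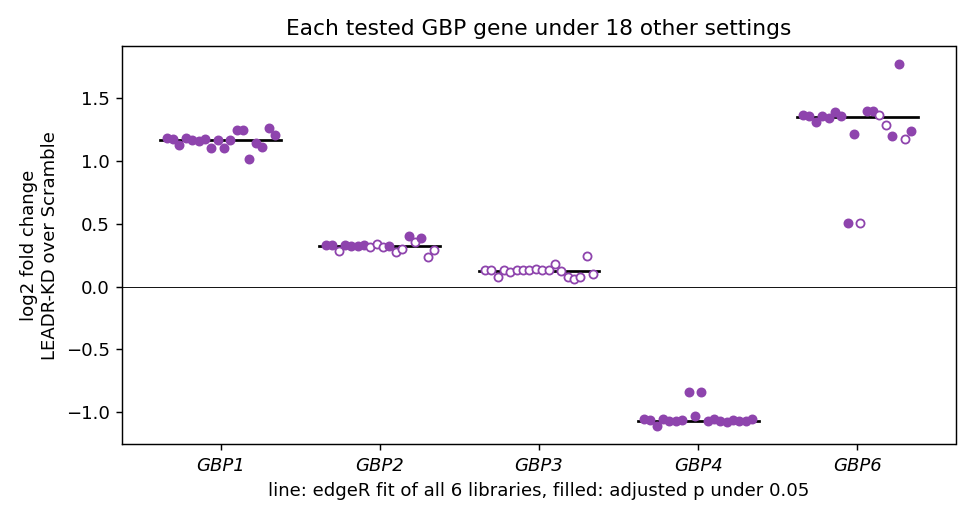
Log2 fold change of LEADR-KD over Scramble of the 5 tested *GBP* genes in the fit of all 6 libraries (line) and under 18 other settings (points, filled where the adjusted p was under 0.05). *GBP1* and *GBP4* passed in all 18, *GBP2* in 9 and *GBP3* in 0, and no point crossed 0.

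Sequence shared between genes limits some counts. Of the 100-base windows of the annotated *GBP2* transcripts 7.21% also occur in *GBP7*, and of those of *GBP1* 0.867% occur in *GBP1P1*. *GBP3*, *GBP5* and *GBP6* shared no such window with another gene and *GBP4* shared 6 windows with *CASP10*. *GBP5* overlaps an antisense gene that had 0 reads in all libraries.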

How the data were processed

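Poly(A) RNA of RT4 cells transfected with the *LEADR* or the scramble siRNA was sequenced from directional libraries, 3 per group, and groups were taken from the submitters' labels. The authors deposited raw counts per gene on hg19. The submitters' processing notes list HISAT2 (version 2.0.5), featureCounts (1.5.0-p3) and DESeq2 (1.20.0), whereas Salmon is named in the methods. Whether strand was used in counting is not stated there, so that reads from overlapping antisense genes may be mixed. The authors also deposited FPKM values, each count divided by gene length and by 1 constant per library. A table of the authors' own comparison by DESeq2 (log2 fold changes and p-values) was not used.

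Genes were filtered by filterByExpr (minimum count 10), so that of 57905 genes 25957 had any count and 14178 were tested. LEADR-KD was compared with Scramble by the quasi-likelihood test of edgeR 4.0.16 in R 4.3.3, with TMM scaling and no covariate. The threshold was an adjusted p of 0.05 (Benjamini-Hochberg, over all tested genes). The SE is the size of the log2 fold change divided by the square root of F. CPM are scaled by TMM. The steps were tested on simulated data. The alternatives were DESeq2 1.42.0, other scalings and filters, limma 3.58.1 on log2(FPKM + 1) or log2(FPKM + 0.1), limma-voom, a replicate block, no mitochondrial genes, and leaving out each library. Leaving out both libraries numbered 1 was added after seeing the data. Intervals, errors and floors cover these libraries only.

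The members and the 14 gene lists were chosen with earlier results of these data known. The genes named are the 6 members, *MIR205HG*, every gene of the receptor and signalling, other *GBP* and neighbour lists, from each other list in each direction up to 4 called genes with the largest change, and for each tested member the 3 protein-coding genes most correlated with it (mean of at least 1 CPM). *SOCS1*, *PTPRC* and *CASP10* were named after their values were seen. A gene of the interferon-gamma lists and a sequence are not reported here, and the lists were counted without that gene. Transcripts, 3′ UTRs and isoforms are those of GENCODE v44 on GRCh37, and a 3′ UTR is the part of a protein-coding transcript after its stop codon. Motifs were searched on both strands of RefSeq promoters.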

Additional observations from a re-analysis of the deposited data

How the results depend on the processing

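All 5 tested members kept their direction under the 18 alternatives. *GBP1*, *GBP3* and *GBP4* also kept their side of the threshold in all of them. *GBP2* lost its call, with log2 fold changes of 0.28 under library totals, 0.32 and 0.34 in limma on log2(FPKM + 1) and log2(FPKM + 0.1), 0.32 in limma without a filter and 0.29 without both libraries numbered 1. *GBP6* lost its call in limma on log2(FPKM + 1) without a filter (0.51, adjusted p = 0.0539). With the filter it kept the call at the same value (adjusted p = 0.00781). This scale understates the change of low genes. Leaving out 1 library at a time gave 0.24 to 0.40 for *GBP2* (adjusted p 0.0267 to 0.145) and 1.17 to 1.77 for *GBP6* (0.00927 to 0.0585). Of all genes 1736 rose and 1719 fell, against 1085 that rose under library totals, and 915 that rose and 854 that fell in limma without a filter. Leaving out 1 library gave 1188 to 1457 that rose and 1142 to 1472 that fell, the lowest count of genes that fell being without LEADR-KD 2. In limma without a filter 4 of 50 interferon-gamma targets and 9 of 33 type I interferon targets rose. In edgeR without a filter 28 of 33 type I interferon targets rose, and 1894 of the 25957 genes with any count. The cause of each of these shifts was not tested. No value is given for *GBP5*, which had 0 to 2 reads.

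The same replicate numbers occur in both groups. Libraries with the same number correlated in their deviations from the group means by r = 0.28, -0.01 and 0.34. LEADR-KD 1 correlated best with Scramble 1 and LEADR-KD 3 with Scramble 3, while LEADR-KD 2 also correlated best with Scramble 3 (0.09). These values do not settle whether the numbers pair the samples, and the main fit has no block. With the replicate block *GBP1* was 1.16, *GBP2* 0.33, *GBP3* 0.13, *GBP4* -1.07 and *GBP6* 1.39, with no call of a member changed, and of all genes 2489 rose and 2365 fell. In the same block 28 type I interferon targets and 20 interferon-gamma targets rose, and of the 8 receptor and signalling genes 2 rose and 1, *IFNGR1*, fell.

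Depth limits *GBP5* and *GBP6*, with at most 53 reads in a library.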
